A study of Mus musculus with 2 samples.

Results

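Mir140 and Mir455 are miRNA genes known for their role in cartilage, and they were examined here in hearts of mouse embryos. The pair was chosen by gene name, and both have an entry in the deposited tables, so that 2 of 1973 measured miRNA genes are described. The series holds 1 group of 2 small RNA libraries, replicates 1 and 2, from hearts of strain B6NCrl at embryonic day 14.5, collected on 15 and 17 July 2014. No treatment, genetic change or control sample is part of it. The labels call each library a single heart and also name pooled sexes, so whether a library is 1 animal is not settled. Replicate 1 held 4327424 reads on miRNA genes and replicate 2 held 3839984, and levels are given as CPM, the counts scaled to these library totals. The spread between the libraries can be technical as well as biological, and no difference between groups exists to be tested.

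Each miRNA gene encodes a hairpin RNA that is cut to a short mature strand, which guides Argonaute proteins to matching sites in messenger RNAs, mainly through the seed, bases 2 to 8 of the strand. Mir140 lies in Wwp2, which encodes a ubiquitin ligase, and Mir455 lies in Col27a1, which encodes a fibrillar collagen chain of cartilage. In mouse chondrocytes both loci are linked to Sox9, the transcription factor that directs cartilage matrix genes, and mice without Mir140 have skeletal defects. Sox9 and several cartilage matrix genes are also active in the mesenchyme of developing mouse heart valves, which is the setting in which these miRNAs were looked at in heart.

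RefSeq (GRCm38.p6) held 3 mature strands of the pair, printed 5′ to 3′ with the seed in capitals to show that these 3 strands have different seeds.
miR-140-3p: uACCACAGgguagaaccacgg
miR-455-5p: uAUGUGCCuuuggacuacaucg
miR-455-3p: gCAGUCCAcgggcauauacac
These are 21, 22 and 21 bases long, and 57.1%, 45.5% and 57.1% of their bases are G or C. For Mir140 the entries hold only miR-140-3p, so a strand from the 5′ side of its hairpin and the seed of that strand are not covered here. The deposited counts are per gene, so reads of the strands of 1 hairpin cannot be separated.

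The seeds of miR-140-3p and miR-455-5p each recurred in 1 other of the 1738 mature entries of the same RefSeq table, and the seed of miR-455-3p recurred in none. The strands that share a seed are shown because they come from genes with hardly any reads in these hearts.
miR-497b, seed of miR-140-3p: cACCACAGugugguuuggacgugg
miR-5129-3p, seed of miR-455-5p: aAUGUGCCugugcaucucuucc
Mir497b had 2 reads in replicate 1 and 0 in replicate 2, where a count of 0 allows up to 0.781 CPM. Mir5129 had 2 reads in replicate 1 and 1 in replicate 2.

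Mir140 occupies chr8:107551244-107551313 of mm10, a hairpin of 70 bases on the plus strand, and Wwp2 runs along the same strand. The hairpin lies 94.0% of the way along its host. Of 11 annotated Wwp2 transcripts, 3 hold it in an intron of 2141 bases, which is intron 16 of the coding transcript with 24 exons. It begins 1108 bases after the upstream exon. A further transcript, of the retained intron class, covers the hairpin with its only exon, and another begins after it with 23 bases between. Mir140 is thus intronic in the 3 coding transcripts that span it and exonic in 1 that is not coding.

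Mir455 occupies chr4:63256851-63256932, a hairpin of 82 bases on the plus strand, also in the orientation of its host. It lies 35.4% of the way along Col27a1, in an intron of 2318 bases in 4 of 7 annotated transcripts and in no exon. In the coding transcript this is intron 10, and the next exon starts 127 bases after the hairpin. Its mature strands sit at bases 17 to 38 and 54 to 74 of the hairpin and are separated by 15 bases. In GENCODE M21, Mir455 was the only miRNA gene in an intron of a collagen gene on the same strand. Mir711, in an exon of Col7a1, had 0 reads in both libraries.

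**Figure D1:**
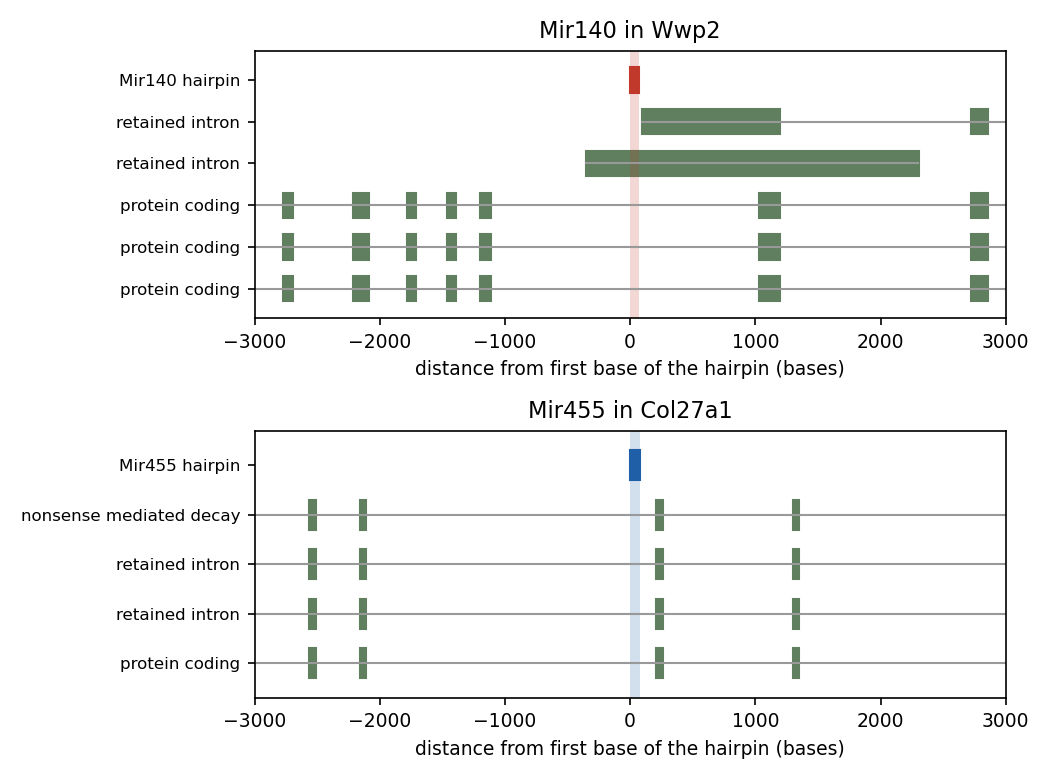
Annotated transcripts of Wwp2 and Col27a1 around each hairpin, with distance from the hairpin's first base in bases and exons as green boxes, 1 row per transcript. Mir140 falls in an intron of 3 Wwp2 transcripts and in the exon of 1, and Mir455 falls in an intron of 4 Col27a1 transcripts.

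Neither gene has another annotated miRNA gene within 10 kb, and neither hairpin shares a stretch of 20 bases with another annotated miRNA hairpin. Among 141767 annotated transcripts, miR-140-3p occurred in its own hairpin and in the overlapping Wwp2 transcript, and both strands of Mir455 occurred in their own hairpin alone. Reads of these 3 strands can be placed at 1 annotated locus each, but the genome sequence itself was not searched. A 5′ strand of Mir140 was not among the strands searched in the transcripts. Reads on the opposite strand were 0 for both genes in both libraries, so the choice of strand did not touch their counts.

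Mir140 had 10481 reads in replicate 1 and 12176 in replicate 2. This is 2422 CPM in replicate 1 (95% exact Poisson interval 2376 to 2469) and 3171 in replicate 2 (3115 to 3228), a mean of 2796 ± 530 CPM (SD, n = 2). Replicate 2 was the higher of the libraries, and their counting intervals did not overlap. The gene took 0.242% and 0.317% of the miRNA gene reads.

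Mir455 had 2813 reads in each library. Scaled to the library totals this is 650 CPM in replicate 1 (626 to 675) and 733 in replicate 2 (706 to 760), a mean of 691 ± 58.3 CPM. Its share was 0.0650% and 0.0733% of the reads. The libraries were closer for Mir455, with an SD of 8.44% of the mean, than for Mir140, with 18.9%.

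Both genes passed the minimum of 10 reads in each library that was used to call a miRNA gene detected, which 17.1% of all 1973 genes did (337). In the order of mean level Mir140 was number 47 and Mir455 number 90. Of the detected genes, 86.1% lay below Mir140 and 73.3% lay below Mir455. Within libraries the rank of Mir140 was 51 in replicate 1 and 38 in replicate 2, and that of Mir455 was 90 and 87.

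**Figure D2:**
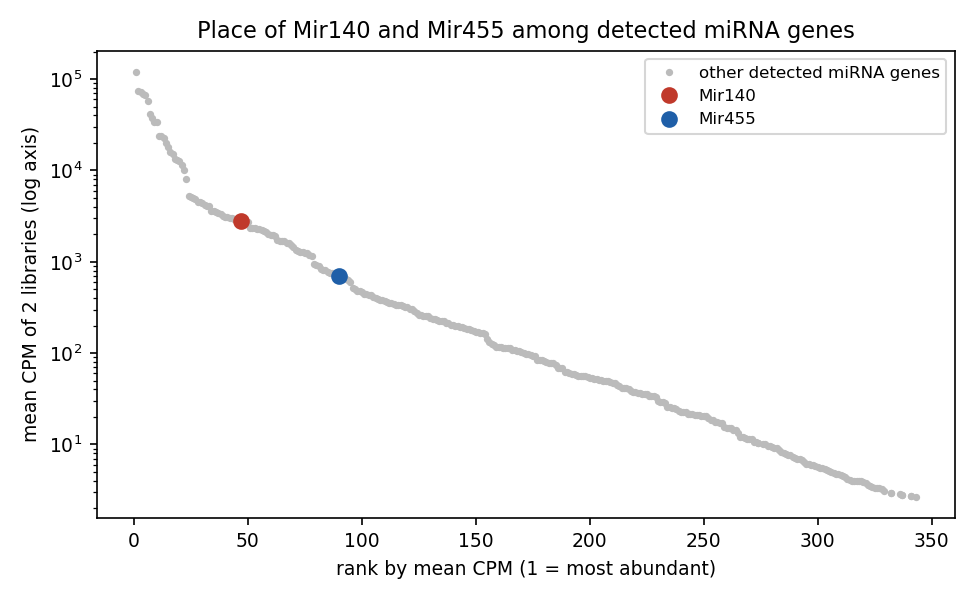
Mean CPM of the 2 libraries on a log axis against rank for the 337 detected miRNA genes. Mir140 stands at rank 47 and Mir455 at rank 90, in the upper part of the gradual slope that follows the few most abundant genes.

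Mir140 exceeded Mir455 in both libraries. The ratio of their reads was 3.73 in replicate 1 (95% exact binomial interval 3.57 to 3.89) and 4.33 in replicate 2 (4.15 to 4.51), with a mean of 4.03 ± 0.426 (SD, n = 2). On the log2(CPM + 1) scale the difference was 2.00 ± 0.15. The order is larger than the spread between the libraries, while the size of the ratio differed between them beyond counting error.

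The position of Mir140 among its neighbours in the order was not fixed by these libraries. The ranges of 18 other genes, from rank 36 to rank 56, overlapped its own. Mir342, next above at 2846 ± 484 CPM, and Mir431, next below at 2794 ± 736, could not be told apart from it. For Mir455, 8 genes between ranks 82 and 94 overlapped. Next above it was Mir320 at 733 ± 105 CPM, and next below was Mir450b at 681 ± 176.

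The genes most like each were taken as the 3 detected genes at the smallest distance in log2(CPM + 1) over the 2 libraries. For Mir140 these were Mir431 at a distance of 0.11, Mir532 at 0.20 and the cardiac muscle miRNA Mir499 at 0.26. Mir140 lay below Mir499 in replicate 1, at 2422 against 2896 CPM, and just above it in replicate 2, at 3171 against 3149. For Mir455 the nearest were Mir467d at 0.06, Mir125b-2 at 0.12 and Mir434 at 0.20. Mir467d and Mir125b-2 share 20 bases with other hairpins and can be under-counted. With 2 libraries this likeness is mainly one of level.

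A list of 18 miRNAs linked to cartilage and skeletal tissue sets the pair among related genes. Of these, 17 had an entry and 14 were detected. Within the list 1 gene lay above Mir140 and 4 lay above Mir455, so that both stood at its upper end with Mir214, Mir27b and Mir145a. Mir140 held 24.5% of the summed CPM of the list in replicate 1 and 26.8% in replicate 2, and Mir455 held 6.57% and 6.20%. The median of all 17 measured genes of the list, detected or not, lay at 99.9 CPM, and the median of all 1973 genes was 0. The median of the 337 detected genes was 104 CPM, but that set leaves out undetected genes and is not matched to the 17. The hairpins of 9 of the 17 share 20 bases with another, so their levels are uncertain and so are the shares and ranks.

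Mir214, made from the Dnm3os transcript with miR-199a, was the one listed gene above Mir140. Mir140 reached 0.685 of its level in replicate 1 and 0.856 in replicate 2, with Mir214 at 3621 ± 118 CPM. Mir140 lay above Mir145a, a smooth muscle miRNA that targets SOX9 in human chondrocytes, by 1.98 times in replicate 1 and 2.18 in replicate 2. It lay above Mir27b by 1.95 and 1.72 times, but Mir27b shares 20 bases with Mir27a. These orders were the same in both libraries.

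Mir455 was lower than Mir145a in both libraries, at 0.532 and 0.504 of its level. It exceeded Mir29a, of a family that targets collagen messages, by 2.88 times in replicate 1 and 2.60 in replicate 2. It exceeded Mir675, which is cut from the H19 transcript, by 5.58 and 5.02 times. Mir204, studied in calcification of human valves, averaged 78.0 ± 8.66 CPM, so that Mir455 stood 8.88 ± 0.238 times above it. The related Mir211 had 22 and 17 reads. Mir29b-1, Mir29b-2 and Mir146b had fewer than 10 reads in both libraries, and each shares bases with another hairpin.

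**Figure D3:**
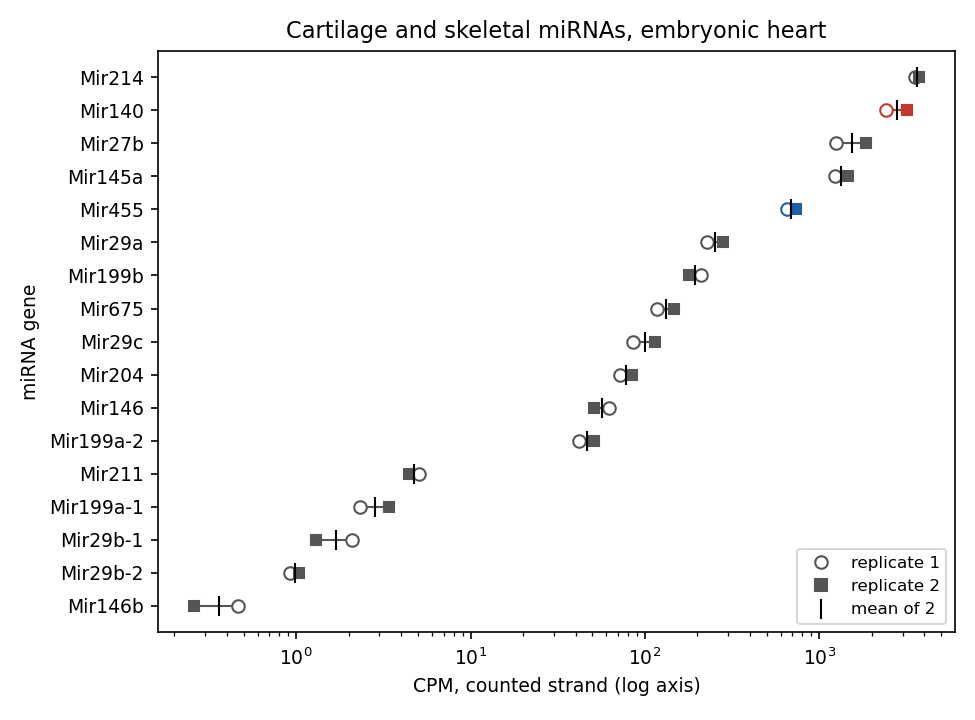
CPM on a log axis for the 17 measured genes of the cartilage and skeletal list, with replicate 1 as open circles, replicate 2 as squares and the mean as a tick. Mir140, in red, lies below Mir214, and Mir455, in blue, lies below Mir145a and above Mir29a in both libraries.

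Against miRNAs known from valve and endocardial cushion development the pair was low. Mir140 lay below 7 of the 9 measured listed genes and Mir455 below 8. The median of the 9 was 20120 CPM. This list and the cartilage and skeletal list were chosen with earlier results of these data known. The place of the pair in them therefore describes level only. Mir21a, which acts in zebrafish valve formation, was 9.99 times above Mir140 in replicate 1 and 7.35 times in replicate 2. The endothelial Mir126a was 28.9 and 23.7 times above Mir140. The listed genes below Mir140 were Mir145a and Mir204.

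The heart muscle markers ranged widely around the pair, and 3 of 5 lay above Mir140 in mean level. Mir208b, hosted in the myosin gene Myh7, was 27.4 times above Mir140 in replicate 1 and 21.1 in replicate 2, and 102 and 91.2 times above Mir455. Mir208a, hosted in the myosin gene Myh6, was 2.70 and 2.96 times above Mir140, and 10.1 and 12.8 times above Mir455. Mir499 was close to Mir140, as given above, and 4.46 and 4.30 times above Mir455. The pair together made up 0.349% ± 0.0588 of the miRNA gene reads. The muscle miRNAs Mir1a-1 and Mir133a-1 had 10 to 13 reads, and both share 20 bases with other hairpins. Both can be under-counted, so their place below the pair is uncertain. In tissue of this kind fewer cells of a type and less RNA per cell cannot be told apart, and the cells in which Mir140 and Mir455 reads arose were not measured.

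Both genes belong to a class of 550 measured miRNA genes that lie alone in an intron of a protein-coding gene on its strand, with no other miRNA gene within 10 kb. Of this class 98 genes were detected (17.8%), at a median of 66.8 CPM. There were 13 genes of the class above Mir140 and 22 above Mir455, with Mir335, Mir208b and Mirlet7g leading. Mir140 and Mir455 were in this sense among the higher genes of their kind of locus.

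The difference between the libraries was in the same direction for both genes and of unequal size. Mir140 was 1.31-fold higher in replicate 2 (95% exact binomial interval 1.28 to 1.34) and Mir455 was 1.13-fold higher (1.07 to 1.19), a log2(CPM + 1) difference of 0.39 and 0.17. Among the 170 genes that averaged 100 CPM or more, 28 differed by more than Mir140 and 92 by more than Mir455, and the median size was 0.19. The median of all 337 detected genes was itself 0.08 higher in replicate 2, so that Mir140 lay 0.31 above that median and Mir455 0.09. Scaling by the median of ratios lowered all log2 differences by about 0.11 and left Mir140 at 0.27 and Mir455 at 0.06.

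**Figure D4:**
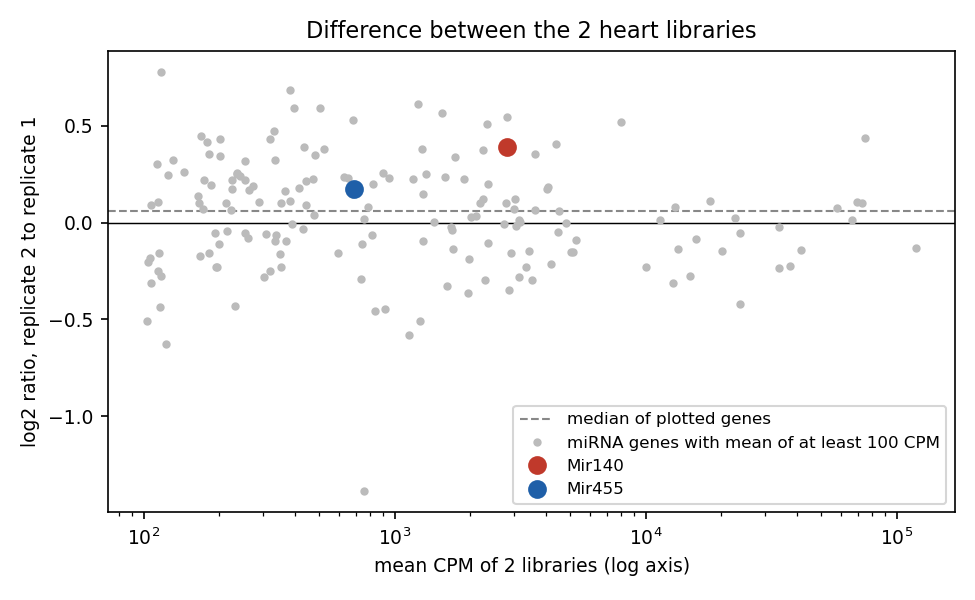
Log2 ratio of replicate 2 to replicate 1 against mean CPM on a log axis for the 170 miRNA genes that averaged 100 CPM or more, with the median of these genes dashed. Mir140 lies at 0.39, with 18 genes above it, and Mir455 at 0.17 lies nearer the median.

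Markers of other cells differed between the libraries too, some of them little. The heart muscle markers summed to 75758 CPM in replicate 1 and 79359 in replicate 2 (1.05-fold), with 4 of 5 higher in replicate 2. That sum was set mostly by Mir208b, at 66314 and 66822 CPM (1.01-fold). Mir208a was 6542 and 9382 CPM (1.43-fold), and Mir499 was 2896 and 3149 CPM (1.09-fold). Mir1a-1, the 1 marker lower in replicate 2, had 13 and 10 reads. The endothelial Mir126a was 69932 and 75015 CPM (1.07-fold). All 7 epithelial markers were higher in replicate 2, and they summed to 667 CPM in replicate 1 and 1142 in replicate 2. The smooth muscle pair Mir143 and Mir145a summed to 64494 and 87098 CPM (1.35-fold), a sum set mostly by Mir143, at 63272 and 85644 CPM. Mir145a alone was 1.19-fold higher in replicate 2. Mir206 of skeletal muscle was 15.7 and 34.1 CPM. The 3 mesenchymal markers Mir21a, Mir214 and Mir199a-2 summed to 27768 and 27064 CPM, a sum set mostly by Mir21a. Mir214 at 3537 and 3704 CPM and Mir199a-2 at 42.1 and 51.0 were higher in replicate 2. Mir199a-2 had only 182 and 196 reads, and its hairpin shares bases with those of Mir199a-1 and Mir199b. Of these, Mir199b was lower in replicate 2, at 209 CPM in replicate 1 and 178 in replicate 2. Mir199a-1 was higher there, at 2.31 and 3.39 CPM. The red blood cell markers Mir451a and Mir144 summed to 1184 and 489 CPM. White blood cell markers summed to 479 and 389 CPM, and of the neuronal markers Mir137 was 13.2 and 85.7 CPM while Mir124a-1 had 0 reads. The part of these cells in the difference of Mir140 was not tested. Mir145a, at 1222 CPM in replicate 1 and 1454 in replicate 2, and Mir675, at 116 and 146, were also higher in replicate 2. Counting these and the pair itself, 11 of the 14 detected genes of the cartilage and skeletal list were higher there. The median log2 difference of the 14 was 0.26. Of all detected genes 201 of 337 were higher in replicate 2.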

How the data were processed

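The deposited tables, 1 per library, hold raw counts per miRNA gene on mm10 with GENCODE M4, per the file lists deposited with them. The sources used here name neither the aligner nor the counter. Each table gives counts for both strands together and each strand alone. The third column, 1 strand alone, was used. It held 95.3% and 95.4% of gene reads. The 4 lines for reads with no gene were left out of the totals. Of all reads, 30.6% and 30.1% mapped to several places and are not in the gene counts, so genes with near-identical copies can be under-counted. In CPM, 3 counts are 0.693 in replicate 1 and 0.781 in replicate 2. The tables give reads and not distinct molecules, so reads may be PCR copies, and the intervals and floors therefore describe counting error alone.

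Names, hosts and hairpins came from GENCODE M21 on the same assembly, which named 1894 of 1973 genes. Mature sequences are RefSeq's. Log2 values used a pseudocount of 1 CPM. The rule for named genes took the pair, the 3 nearest genes and the next in order, the listed genes, genes sharing a seed, miRNAs in collagen genes and miRNAs within 10 kb. The genes and lists were chosen with earlier results of these data known. With 1 group there was no test between groups. TMM factors came from edgeR 4.0.16 and median-of-ratios factors from DESeq2 1.42.0 in R 4.3.3. All else was computed with scipy 1.17.1, pandas 2.3.3 and numpy 2.4.6 under Python 3.11.15. Ratios and intervals were tested on simulated data. Alternatives were the unstranded column, other scalings and totals, thinning, pseudocounts, count minimums, each replicate left out and, chosen after seeing the data, scaling to all reads.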

Additional observations from a re-analysis of the deposited data

How the results depend on the processing

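Of 60 recomputed values, 9 moved by more than the spread between libraries, the counting interval or, for the number of detected genes, 1.5 times. The other 51 are no measure of stability, since they include values that could not move past these limits: scalings and totals cancel in the ratio of Mir140 to Mir455, neither gene has opposite-strand reads, and leaving out 1 of 2 libraries moves a mean by less than 1 SD by construction. The log2 ratio of Mir140 to Mir455 was 1.90 to 2.11 in single libraries. The replicate 2 to replicate 1 log2 ratio of Mir140 was 0.32 with TMM and 0.27 with median-of-ratios scaling, and that of Mir455 was 0.059 with the latter scaling; these scalings shift all genes alike. Without the most abundant gene in the total, Mir455 averaged 785 CPM. Scaled to all reads, a choice made after seeing the data, Mir140 averaged 1480 and Mir455 366 CPM, since 53.1% and 52.8% of all reads fell on genes. The rank of Mir455 was 97 with unstranded counts, where genes with reads on the opposite strand enter, and 87 to 90 with 1 replicate left out. Detected genes numbered 542 with at least 1 read in each library. No paired analysis was possible because the series has 1 group. Depth does not limit the pair, which had at least 2813 reads per library, but 2 libraries limit what can be said of spread.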

Other observations

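The equal count of Mir455 in both libraries, 2813, was shared in kind by 1 further gene: of 231 genes with at least 100 reads in each library, 2 had equal counts, the other being Mir331 with 226. Since replicate 1 held more reads, an equal count is a higher CPM in replicate 2. The listing of Mir331 was chosen after its values were seen.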
